A study of Oryctolagus cuniculus with 16 samples.

Results

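The genes described here are the 220 longest multi-exon genes of the rabbit annotation used for the deposited counts. They are the genes outside the mitochondrial chromosome that have 2 or more exon entries and span at least 400 kb from the first exon base to the last. They were taken from 23669 annotated genes, of which 17703 were multi-exon genes outside the mitochondrial chromosome, so that 17483 shorter multi-exon genes were left for comparison. The rule used gene coordinates and no measured value.

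The rabbits were New Zealand kits born prematurely that had moderate to severe intraventricular haemorrhage (IVH, bleeding into the brain ventricles). Cells were taken from their cerebral hemispheres at day 7. Every kit had received an adenovirus into the ventricle, with expression driven by the CMV promoter. The treated kits received Ad-PPARg-GFP (peroxisome proliferator-activated receptor gamma together with green fluorescent protein) and the controls received Ad-GFP. A CMV promoter is not specific to a cell type, and which cells took up the virus was not measured in these data. Both treatment groups therefore share the haemorrhage, the injection and the viral vector, and no kit without haemorrhage or without virus was analysed here. From these brains 2 cell populations were isolated: microglia, sorted by flow cytometry as CD11b+ CD45low cells, and O4+ oligodendrocyte progenitor cells (OPC). Each of the 4 combinations of cell type and treatment had 4 libraries, giving 16 libraries from 10 animals. Of these animals, 6 gave both cell types, 3 under each treatment. The animal identifiers carried 6 prefixes, 3 per treatment and none in both, so whatever a prefix stands for cannot be told apart from the treatment.

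Very long genes owe their length to introns. In mammals many of the longest genes encode adhesion molecules, ion channels, synaptic proteins and cytoskeletal proteins of neural cells, and an RNA polymerase needs far longer to cross such a gene than an average one. OPC are neural cells that mature into myelin-forming oligodendrocytes, whereas microglia are the resident macrophages of the brain and descend from the blood lineage. PPARg is a nuclear receptor that acts as a transcription factor and is known in macrophages for its part in lipid metabolism and in restraining inflammatory genes. The files give Ensembl rabbit identifiers without gene names, and none of the identifiers matched the gene table at hand, so the function of an individual gene is not stated and genes are given by position. The genome build of the coordinates is not given in the sources used here. For the same reason the sorted populations could not be checked against named marker genes, nor the PPARg transgene against its own transcript.

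The 220 long genes spanned 400.6 to 1296 kb, with a median of 499758 bp. Of them 110 were under 500 kb and 4 reached 1 Mb. They held a median of 22 exon entries against 8 in the shorter multi-exon genes, and a median summed exon length of 4564 bp against 1797 bp. Exons covered a median of 0.862% of the span of a long gene and 12.0% of the span of a shorter one. The longest intron of a long gene measured 34508 to 440526 bp with a median of 143145 bp, and it reached 100 kb in 181 of the 220 genes. In only 1 gene did a single intron take up more than 50% of the span, so the length was usually spread over several large introns.

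Numbered chromosomes and chromosome X held 90.0% of the long genes, 5 of them on X, and unplaced scaffolds held the other 22 genes. Chromosome 7 had the most, 22 of its 730 multi-exon genes (3.01%), and chromosome 10 had the highest share, 3.57%. Among the 220 spans, 110 enclosed at least 1 other annotated gene. Exon bases shared with another gene, where a read could be assigned ambiguously, were found in 7 long genes (3.18%) and in 6.20% of the shorter ones.

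Just inside the threshold were genes on chromosome 9 (38495890 to 38896508), chromosome 11 (53531891 to 53932781) and chromosome 2 (7063561 to 7464463), all spanning 400.6 to 400.9 kb. Just outside were genes on chromosome 5 (17280926 to 17679580), chromosome 11 (28335522 to 28734066) and chromosome 12 (50482922 to 50880949), spanning 398.0 to 398.7 kb. The 3 inside had median levels of 19.1, 4.47 and 2.37 CPM (counts scaled to a common library size of 1000000) in microglia and 6.33, 66.8 and 2.34 CPM in OPC. The 3 outside had 0.515, 13.0 and 0.101 CPM in microglia and 7.06, 18.6 and 0.0942 CPM in OPC. Genes on both sides of the threshold thus included high and low levels in each cell type.

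The libraries held 6.24 M to 17.6 M counts (M, 1000000 counts) assigned to genes. The long genes made up 0.460% to 0.601% of the counts in the 8 microglia libraries and 0.993% to 1.28% in the 8 OPC libraries, so the groups did not overlap. In microglia the 4 Ad-PPARg libraries gave 0.601%, 0.488%, 0.556% and 0.570%, and the 4 Ad-GFP libraries 0.460%, 0.484%, 0.479% and 0.531%. In OPC the Ad-PPARg libraries gave 0.993%, 1.20%, 1.28% and 1.15%, and the Ad-GFP libraries 1.23%, 1.16%, 1.17% and 1.21%. The treatment groups overlapped within each cell type. The cell types were also apart in the neighbouring span classes. Multi-exon genes of 200 to 400 kb took 1.86% to 2.47% of the counts in microglia and 3.94% to 5.20% in OPC. Those of 100 to 200 kb took 7.05% to 8.11% and 9.63% to 14.1%. The separation was therefore not particular to genes of 400 kb or more. In such bulk libraries fewer cells of a type and less RNA per cell cannot be told apart.

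Among the microglia libraries 2 stood apart in the long genes. Replicate 1 of the Ad-PPARg microglia had the fewest counts of all 16 libraries (6.24 M), the most genes at 1 CPM or more (15126, against 11742 to 13928 in the other 15) and 3.77% of its counts on single-exon genes under 300 bp, against 0.278% to 0.663% in the other 15. It had 214 of the 220 long genes at 1 CPM or more, whereas the other 3 Ad-PPARg microglia libraries had 152, 180 and 153. Replicate 1 of the Ad-GFP microglia lay at the other end with 115 long genes, against 163 to 200 in the other 3 Ad-GFP libraries. The OPC libraries were closer together, with 190 to 213 long genes after Ad-PPARg and 199 to 214 in 3 of the 4 Ad-GFP libraries, the last having 89.5% of the 220. Relative to its mean over the microglia libraries, the median long gene deviated by 0.62 log2 units in replicate 1 of Ad-PPARg and by -0.72 in replicate 1 of Ad-GFP, whereas it stayed between -0.19 and 0.20 in the other 6 microglia libraries. For several results that rest on these libraries, values without them are also given.

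**Figure D1:**
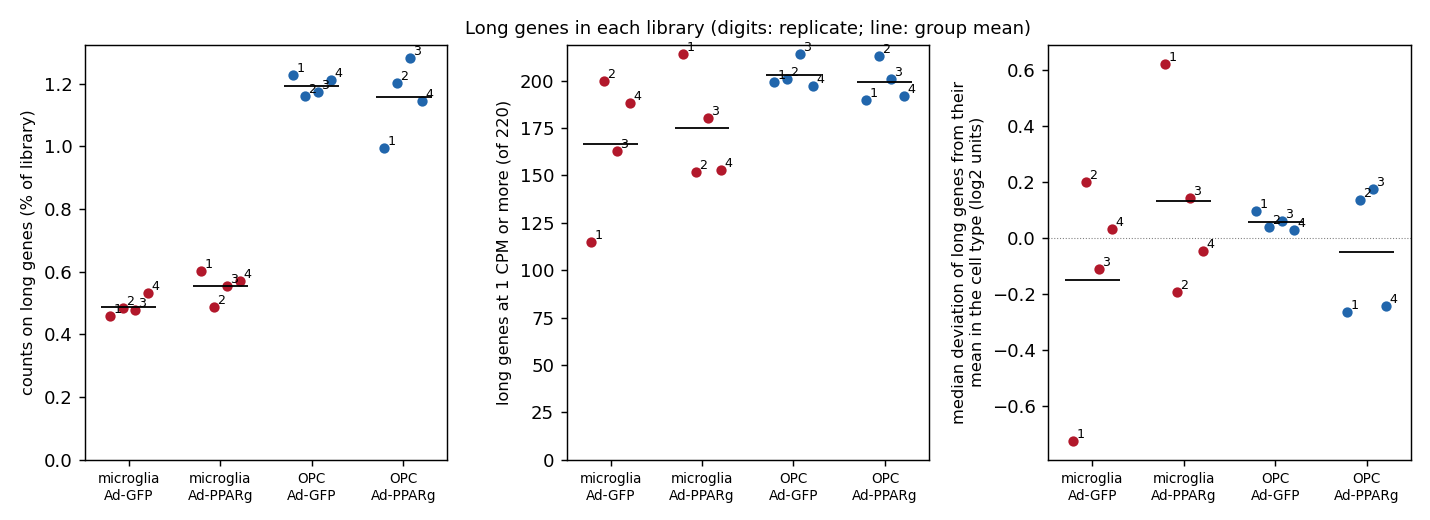
The 3 panels plot, for each of the 16 libraries, the percentage of counts on the 220 long genes, the number of long genes at 1 CPM or more, and the median deviation of the long genes from their mean in the cell type (log2 units). Points are libraries with their replicate number and lines are group means; long genes take 0.460% to 0.601% of the counts in microglia and 0.993% to 1.28% in OPC, and replicate 1 of both microglia groups lies at the extremes of the right panel.

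The first question was how many of the long genes are expressed in each cell type. A gene was counted as expressed where it reached 1 CPM in at least 4 of the 8 libraries of a cell type. By that measure 203 of the 220 long genes (92.3%) were expressed in OPC and 176 (80.0%) in microglia. Of these, 174 were expressed in both cell types, 29 (13.2%) in OPC alone and 2 (0.909%) in microglia alone, and 15 (6.82%) in neither. The shorter multi-exon genes were split almost evenly, with 68.3% expressed in OPC and 67.3% in microglia, 4.55% in OPC alone and 3.61% in microglia alone.

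The gap between the cell types widened with span. From 30 to 100 kb, 82.7% of 4186 genes were expressed in microglia and 83.0% in OPC. From 100 to 200 kb the shares were 83.1% and 86.3% of 1507 genes, and from 200 to 400 kb 83.1% and 89.4% of 649 genes. At 400 kb or more the share in OPC was the highest of all 6 span classes, while the 80.0% in microglia was below that of the 3 classes before it. The share in microglia depended on the level required: it was 91.8% at 0.5 CPM and 67.7% at 2 CPM, against 94.5% and 86.4% in OPC. In both settings the share in OPC was the higher. At 1 CPM the share in microglia was 76.4% to 80.0% with 1 microglia library left out. It was 76.4% without replicate 1 of Ad-PPARg, and the same without replicate 3 of Ad-PPARg or replicate 2 of Ad-GFP.

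**Figure D2:**
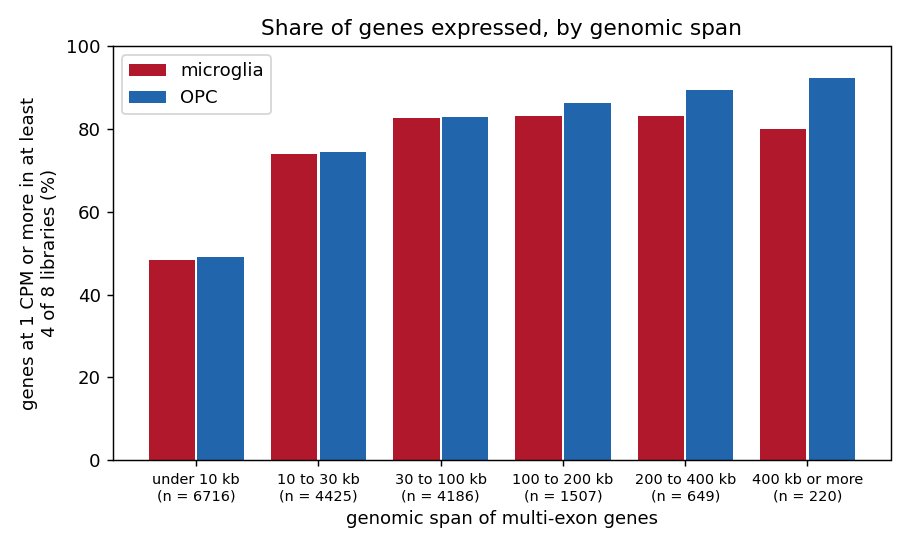
Bars give the percentage of multi-exon genes at 1 CPM or more in at least 4 of 8 libraries, for microglia and OPC, in 6 classes of genomic span with the number of genes in each. The 2 cell types are nearly equal up to 100 kb, and at 400 kb or more the bars reach 80.0% in microglia and 92.3% in OPC.

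The second question was whether long genes differ between the cell types in level. Of the 220, 214 had enough counts to be tested, and the other 6 had at most 21 counts in any microglia library and 17 in any OPC library. A gene was called where the adjusted p of edgeR's quasi-likelihood test, Benjamini-Hochberg over all 14699 genes tested, was under 0.05. Among the 214 long genes, 116 (54.2%) were called higher in OPC, where 35.1% of all tested genes were, and 44 (20.6%) were called higher in microglia, where 33.4% of all tested genes were. In all 160 were called (74.8%, against 68.5% of all tested genes), and the remaining 54 were not. At a difference of at least 2-fold 108 were called higher in OPC, against 22.9% of all tested genes, and 27 higher in microglia, against 21%. Long genes were thus called higher in OPC more often, and higher in microglia less often, than tested genes at large, and the fold changes were large as well.

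The median log2 difference (OPC minus microglia) was 1.20 over the long genes and -0.01 over all genes tested. It was 0.01 from 100 to 200 kb and 0.48 from 200 to 400 kb. Differences of at least 16-fold were called higher in OPC for 37 long genes (17.3%, against 5.05% of all tested genes) and higher in microglia for 5 (2.34%, against 5.63%). The CPM ranges of the 8 microglia and the 8 OPC libraries did not overlap for 86 long genes higher in OPC, where percent called over all tested genes was 20.6%, and for 30 higher in microglia, where it was 20.4%. The direction did not depend on the low-count filter, since 144 of all 220 long genes (65.5%) had the higher mean CPM in OPC, against 42.8% of the shorter genes.

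The calls split the long genes by level as follows. The 116 long genes called higher in OPC had a median level of 3.20 CPM in microglia and 43.2 CPM in OPC, and a median log2 difference of 2.90. Of these, 20 were not expressed in microglia by the 1 CPM measure. The 44 called higher in microglia had medians of 38.9 CPM in microglia and 12.4 CPM in OPC, with a median log2 difference of -1.19. All 44 were expressed in microglia, and 2 of them were not expressed in OPC. The 54 genes not called were low in both, with medians of 3.36 and 3.26 CPM.

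**Figure D3:**
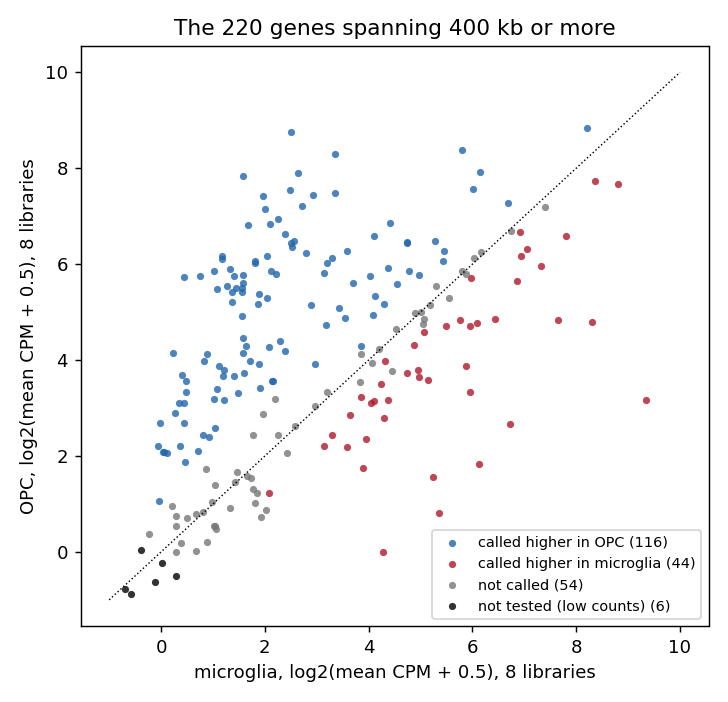
Each point is 1 of the 220 long genes, placed by its mean level over 8 microglia libraries (x) and 8 OPC libraries (y) as log2(CPM + 0.5), and coloured by the call of the cell type test. The 116 genes called higher in OPC form a broad cloud above the line of equal levels, many of them at low levels in microglia, and the 44 called higher in microglia lie mostly close below it.

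The member with the lowest p among those higher in OPC was ENSOCUG00000000898, a gene of 21 exon entries on the minus strand of chromosome 20 (5094270 to 5527819). Its level ranged from 7.69 to 10.4 CPM with a median of 9.88 in the 8 microglia libraries, and from 59.9 to 81.7 CPM with a median of 69.3 in the 8 OPC libraries. The groups were far apart and each was tight, and the log2 difference was 2.90 (SE 0.11, adjusted p 2.69e-12). The gene next in order, ENSOCUG00000002345 on chromosome 19 (35613713 to 36181060), showed the largest difference of all long genes. It had 0.865 to 5.35 CPM in microglia with a median of 2.34, and 181 to 283 CPM in OPC with a median of 220. The log2 difference was 6.52 (SE 0.30, adjusted p 2.25e-11), which is 91.9-fold.

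The other 8 of the 10 members with the lowest p in this direction had differences of 2.96-fold to 86.7-fold, and none of their ranges overlapped between the cell types. The 86.7-fold difference belonged to a gene on chromosome 18 (31335757 to 31990614), which had 1.25 to 10.7 CPM in microglia and 250 to 559 CPM in OPC. Chromosome 13 held 2 of the 8, at 20361287 to 20962076 (36.5-fold) and at 15714654 to 16354639 (42.2-fold). The smallest difference of the 8, 2.96-fold, came from a gene on chromosome 5 (10027822 to 10444050) with 18.5 to 22.5 CPM in microglia and 51.2 to 68.1 CPM in OPC. These 10 genes therefore covered both near-absence in microglia and moderate differences measured with little spread.

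Among the members higher in microglia, the lowest p belonged to ENSOCUG00000000172 on chromosome 13 (56144498 to 56550635). It had 92.8 to 126 CPM in microglia with a median of 101, and 3.93 to 8.68 CPM in OPC with a median of 5.26. Its log2 difference was -4.17 (SE 0.16, adjusted p 2.81e-12). ENSOCUG00000010654 on chromosome 15 (65289798 to 65750911) had 54.3 to 90.1 CPM in microglia with a median of 71.0, and 2.00 to 4.09 CPM in OPC with a median of 2.94, a log2 difference of -4.49 (SE 0.18, adjusted p 4.09e-12). Both genes kept a low level in every OPC library, and no OPC library reached the lowest microglia library.

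Only 5 long genes were called at least 16-fold higher in microglia, these 2 among them. The largest of the 5 differences, 77.7-fold, was that of a gene on chromosome 3 (51065822 to 51502282) with 53 exon entries, which also had the highest microglial level of all long genes. Its 8 microglia libraries had 552 to 803 CPM with a median of 651, and its 8 OPC libraries 1.55 to 16 CPM with a median of 7.5. The other 2 lay on chromosome 7 (81478944 to 82141726, 35.9-fold) and chromosome 1 (37165358 to 37620825, 32.4-fold). In each of these 5 genes the highest OPC library lay below the lowest microglia library.

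The longest gene of the annotation, 1296 kb on chromosome 3 (127786167 to 129082410) with 73 exon entries, was among those low in microglia. It had 0.0961 to 6.64 CPM in microglia with a median of 1.03, and 46.3 to 94.5 CPM in OPC with a median of 71.3, a log2 difference of 5.47 (SE 0.54). The second longest, 1202 kb on chromosome 7 (78232673 to 79435066), had medians of 2.97 and 57.1 CPM and a log2 difference of 3.79 (SE 0.37). The third, 1063 kb on chromosome X (18306758 to 19369969), was low in both, with medians of 0.776 and 2.40 CPM and a log2 difference of 0.56 (SE 0.61) that did not pass the test (adjusted p 0.431, edgeR). In the first and the third the highest microglia library was replicate 1 of Ad-PPARg.

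The long genes with the highest levels included both small and large differences. The highest OPC level was that of a gene on chromosome 17 (15188180 to 15592538), with a median of 455 CPM in OPC and 290.5 CPM in microglia, 1.55-fold apart. The next 2 in OPC were the chromosome 18 gene with the 86.7-fold difference, with a median of 445 CPM, and a gene on scaffold GL018864 (169156 to 589412) with 310 CPM in OPC and 53.7 CPM in microglia, a 6.03-fold difference. Behind the chromosome 3 gene, the highest microglial levels were on chromosome 10 (20318503 to 20885897) and chromosome 7 (16235653 to 16648670), with medians of 438 and 305 CPM in microglia and 191 and 213 CPM in OPC. Per kb of exon, the highest mean microglial level was 107 CPM per kb, on chromosome 18 (12742775 to 13340330). The highest in OPC was 127 CPM per kb, on chromosome 1 (163681972 to 164228470), where microglia had 2.54 CPM per kb.

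Within the 220 the difference between the cell types was larger in the longer genes. Of 106 tested genes spanning 400 to 500 kb, 65 had a higher fitted level in OPC, with a median log2 difference of 0.73. From 500 to 600 kb it was 40 of 55 with a median of 1.09, and at 600 kb or more 38 of 53 with a median of 1.81. Calls higher in microglia numbered 26, 9 and 9 in these 3 classes. Of the 220, 4 pairs were neighbours along a chromosome, and in none of these pairs were both genes called.

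Genes of different span differ in level, and the difference between the cell types varies with level, so the long genes were set beside shorter multi-exon genes at matched level. The 13247 shorter genes were reweighted to the distribution of the long genes over bins of 1 log2 unit of the mean level of the 2 cell types. At matched level 53.0% of the shorter genes had a higher fitted level in OPC, against 66.8% of the long genes, a difference of 13.8 percentage points. Over all tested genes the share with a log2 difference above 0 was 49.6%. The median log2 difference was 0.08 in the matched shorter genes and 1.20 in the long genes.

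The excess was seen at low and middle levels and not at the top of the expression range. From 0 to 1 log2 units, 63.6% of 22 long genes and 49.0% of the shorter genes were higher in OPC. From 1 to 2 it was 74.1% of 27 against 54.9%. In the bin from 2 to 3 log2 units, 79.3% of 29 long genes and 61.0% of the shorter genes were higher in OPC. From 3 to 4 it was 71.1% of 45 against 59.1%, and from 5 to 6 it was 66.7% of 27 against 46.2%. From 6 to 7 the order turned, with 35.7% of 14 long genes against 43.0%. In the top 2 bins, with 3 long genes each, 33.3% of the long genes were higher in OPC, against 39.1% and 37.9%.

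The choice of comparison genes set the size of the difference. Set against matched genes of 100 to 200 kb, the long genes had 10.7 percentage points more genes higher in OPC, and against those of 200 to 400 kb only 4.33 points, with medians of 1.20 and 0.57. The genes of 200 to 400 kb themselves stood 9.74 points above all genes shorter than they are. The difference therefore did not begin at 400 kb.

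**Figure D4:**
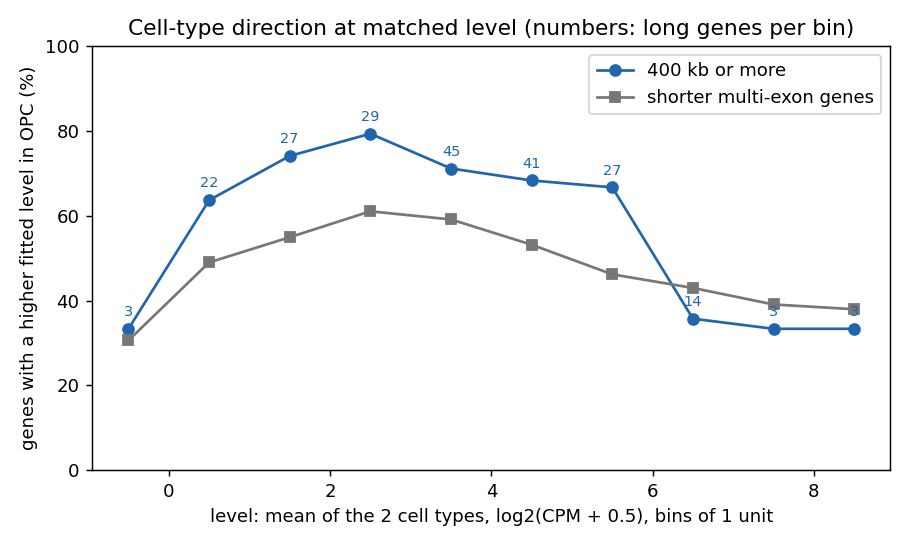
The percentage of genes with a higher fitted level in OPC is plotted against the mean level of the 2 cell types in bins of 1 log2 unit (log2(CPM + 0.5)), for long genes (circles, number of genes beside each) and shorter multi-exon genes (squares). Long genes lie above the shorter ones in the bins from 0 to 6, for example 79.3% against 61.0% from 2 to 3, and below them from 6 to 9.

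The 6 animals that gave both cell types allowed the same comparison within 1 animal. The matched difference was 17.5, 15.7 and 11.8 percentage points in the 3 Ad-GFP animals and 14.8, 17.9 and 0.42 points in the 3 Ad-PPARg animals, with a mean of 13.0 ± 6.55 (SD, n = 6). The value of 0.42 came from the animal that gave replicate 1 of the Ad-PPARg microglia, in which 51.9% of the long genes and 51.4% of the matched shorter genes were higher in OPC. The other 5 animals lay close together. Without that microglia library the matched difference over the remaining 15 libraries was 16.2 points. In that fit 127 of 214 long genes were called higher in OPC. Calls over all genes, in either direction, also rose, to 10204 from 10071 with all 16 libraries. At an unadjusted p under 0.05 (edgeR), 80.4% of the long genes passed in either direction, against 71.0% of all tested genes. Of the 214 long genes, 102 (47.7%) were higher in OPC in all 6 animals at once, against 33.3% of all tested genes. Lower in OPC in all 6 were 44 (20.6%), against 29.3%.

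The third question was whether PPARg overexpression changed the long genes in either cell type. Each treatment comparison was fitted on the 8 libraries of its cell type, and CPM values below are scaled within that cell type. In microglia 179 of the 220 long genes passed the low-count filter and 13041 genes were tested. No long gene was called by edgeR's quasi-likelihood test at an adjusted p under 0.05, where percent called over all genes was 0%. At an unadjusted p under 0.05 the edgeR test had 17 long genes (9.50%, against 11.4% of all tested genes), 14 of them higher after Ad-PPARg (7.82%, against 4.87% of all tested genes) and 3 lower (1.68%, against 6.54%). DESeq2 called 1 higher and 1 lower, where it called 0.376% and 0.46% of all genes, and limma with voom quality weights called 11 higher and 3 lower, where it called 4.94% and 4.88%. At an unadjusted p under 0.05 DESeq2 had 16 higher and 3 lower, against 5.98% and 7.58% of all genes, and limma 27 and 7, against 16.3% and 15.7%.

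Although no gene passed the test, the fitted differences in microglia leaned one way. Of the 179 long genes, 141 (78.8%) had a log2 difference above 0, against 53.6% of all tested genes, with a median of 0.30 against 0.03. Shorter genes matched in microglial level had 58.4% above 0 and a median of 0.08. Over the span classes the median log2 difference was -0.01, 0.00, 0.03, 0.10 and 0.20 from the shortest class to that of 200 to 400 kb. The long genes were also measured less precisely, with a median SE of 0.44 log2 units against 0.19 in the shorter genes. Without any filter, 177 of all 220 long genes (80.5%) had a difference above 0, against 56.4% of all genes.

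This lean varied with level and with 1 library. Long genes with a mean level under 8 CPM in microglia, a level chosen after the values were seen, had a difference above 0 in 87 of 93 cases, with a median of 0.56, against 66.3% and 0.20 in shorter genes of that level. At 8 CPM or more it was 54 of 86 (62.8%) with a median of 0.05, against 48.2% and -0.01. At 16 CPM or more it was 38 of 62 (61.3%) with a median of 0.04, against 46.7% and -0.02. The lean was thus larger in the genes of low level.

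Replicate 1 of Ad-PPARg bore on the low levels. Without it, 50 of 94 long genes under 8 CPM (53.2%) were above 0 with a median of 0.03, against 51.2% and 0.02 in shorter genes. At 8 CPM or more the long genes above 0 again numbered 54 of 86, with a median of 0.07, against 50.1% and 0.00. At 16 CPM or more they were 41 of 62 (66.1%) with a median of 0.08, against 49.5%. The lean of the genes of low level was nearly gone without that library, whereas the smaller one at 8 CPM or more was about as large. Over all levels 104 of 180 (57.8%) were above 0 with a median of 0.05, against 50.4% of the shorter genes. Without replicate 1 of Ad-GFP, 74.5% were above 0 with a median of 0.16, against 55.0% and 0.04 over all tested genes. Limma with quality weights, which lowers the weight of deviating libraries, gave 116 of 179 (64.8%) and a median of 0.14. Over all tested genes it gave 52.3% and 0.02.

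The long genes were also split by the cell type call, which comes from a comparison that shares the microglia libraries with this one. Of the 97 long genes called higher in OPC that could be tested in microglia, 86 had a difference above 0, with a median of 0.41. Shorter genes with the same call and matched level had 67.6% above 0 and a median of 0.18. Of the 38 not called, 29 were above 0 with a median of 0.33. Of the shorter genes not called 50.4% were, but these were not matched in level. Of the 44 long genes called higher in microglia, 26 (59.1%) were above 0 with a median of 0.03, against 47.2% and -0.02 in matched shorter genes with that call. In each of the 3 classes the long genes had the higher share above 0, though level was not matched in the class not called. This split is given for all 8 microglia libraries only. The 705 other genes that were at least 16-fold higher in OPC made up 0.307%, 0.220%, 0.478% and 0.227% of the counts in the Ad-PPARg microglia libraries and 0.0992%, 0.322%, 0.244% and 0.199% in the Ad-GFP microglia libraries. These shares overlapped between the treatments, replicate 1 of Ad-GFP had the lowest of all 8, and their part in the result was not tested.

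The long gene with the lowest p among those with a higher fitted level after Ad-PPARg in microglia was ENSOCUG00000000863, a gene of 1023 kb on the plus strand of scaffold GL018699 (10140917 to 11164205). Its 4 Ad-PPARg libraries had 29.0, 22.5, 24.4 and 33.3 CPM and its 4 Ad-GFP libraries 13.8, 17.8, 14.2 and 19.7 CPM. Every treated library was above every control library. The log2 difference was 0.74 (SE 0.17), with an adjusted p of 0.409 in edgeR and 0.0305 in DESeq2. ENSOCUG00000015211 on chromosome 8 (39415522 to 39994073) had 91.8, 72.5, 74.5 and 118 CPM after Ad-PPARg and 36.7, 53.7, 56.0 and 69.1 CPM after Ad-GFP. Its groups did not overlap either, and the log2 difference was 0.73 (SE 0.21, adjusted p 0.409 in edgeR).

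Both genes were above 8 CPM in every microglia library, and leaving out any 1 library kept their differences between 0.54 and 0.87. A gene on chromosome 2 (113568667 to 114256171) was the only other long gene whose treated libraries all lay above the controls, with 127, 104, 125 and 134 CPM against 101, 92.8, 96.9 and 97.5 CPM and a log2 difference of 0.34 (SE 0.11, adjusted p 0.409). That makes 3 long genes with separate ranges in this direction (1.68%), where 1.84% of all tested genes had them, and 0 in the other, where 2.31% had them. The next 2 by p lay on scaffold GL018723 (1254769 to 1687000) and chromosome 4 (57006203 to 57429831), with differences of 0.68 and 0.87 and overlapping ranges. By this measure the long genes did not stand out from the tested genes.

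In the other direction, ENSOCUG00000009950 on chromosome 18 (12742775 to 13340330) had 64.4, 90.6, 64.9 and 71.0 CPM after Ad-PPARg and 131, 129, 134 and 86.7 CPM after Ad-GFP in microglia. The first 3 controls lay above all treated libraries, and the fourth fell among them. The log2 difference was -0.72 (SE 0.17), with an adjusted p of 0.409 in edgeR and 0.0229 in DESeq2. ENSOCUG00000029667 on chromosome 16 (44272921 to 44711155) had 110, 123, 114 and 131 CPM against 152, 156, 156 and 123 CPM, a log2 difference of -0.29 (SE 0.12, adjusted p 0.420). Here too replicate 4 of Ad-GFP lay within the treated range. The next 3 by p, on chromosome 7 (81478944 to 82141726), chromosome 15 (65289798 to 65750911) and chromosome 2 (157715199 to 158205131), had differences of -0.94, -0.30 and -0.23. All 5 were called higher in microglia than in OPC.

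In OPC 205 long genes and 13492 genes in all were tested. No long gene was called (adjusted p under 0.05, edgeR), where percent called over all genes was 0%, and neither DESeq2 nor limma called one. DESeq2 called 0.0519% of all genes higher and 0% lower, and limma 0.0296% and 0.0371%. At an unadjusted p under 0.05 there were 0 higher, against 0.763% of all tested genes, and 2 lower (0.976%), against 0.467%, where 1.23% of all genes passed in either direction. With DESeq2 there were also 0 higher and 2 lower, against 1.02% and 0.534% of all genes, and with limma 20 higher and 14 lower, against 8.67% and 7.62% of all genes. The fitted differences were small: 74 of 205 (36.1%) were above 0, against 57.5% of all tested genes, and the median was -0.05 against 0.03. Shorter genes matched in OPC level had 57.3% above 0 and a median of 0.03.

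The direction in OPC depended on 1 library and on the tool. Without replicate 1 of Ad-PPARg, 115 of 209 long genes (55.0%) were above 0, against 57.3% of all tested genes. The medians were 0.026 and 0.035, so the long genes then lay close to all tested genes. In the limma fit 127 of 205 (62.0%) were above 0, against 52.3% of all tested genes, with medians of 0.06 and 0.01. Replicate 1 of Ad-PPARg had the lowest share of counts on long genes among the OPC libraries, 0.993% against 1.15% to 1.28% in the other 7. Over the span classes the median log2 difference was 0.05, 0.04, 0.02, 0.00 and -0.02 up to 400 kb. The span order of the medians in OPC was therefore the opposite of that in microglia, at a smaller size.

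**Figure D5:**
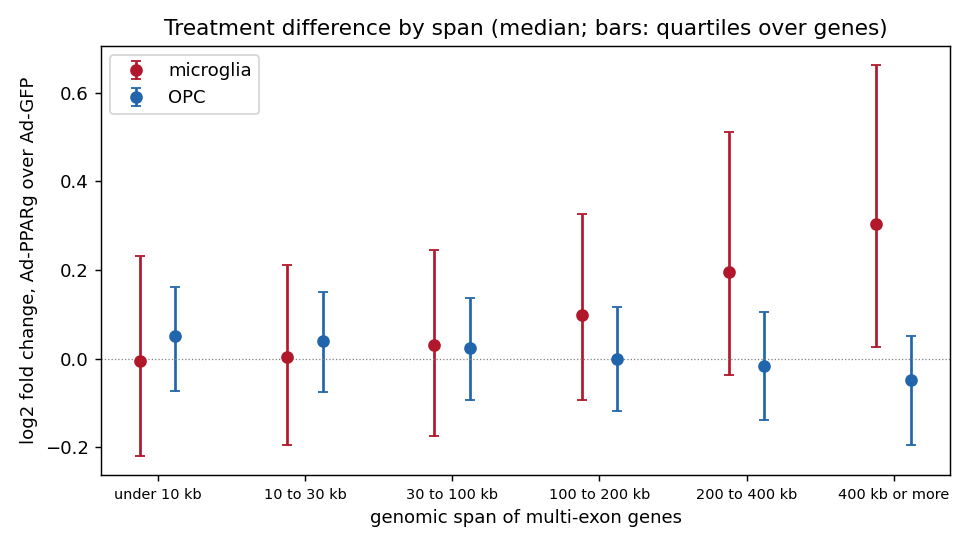
The median log2 difference between Ad-PPARg and Ad-GFP is plotted for 6 classes of genomic span in microglia and in OPC, with bars from the lower to the upper quartile over genes. In microglia the median reaches 0.30 at 400 kb or more and in OPC -0.05. Without replicate 1 of the respective Ad-PPARg group these medians are 0.05 and 0.03, against 0.00 and 0.03 over all tested genes.

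The OPC gene with the lowest p was ENSOCUG00000012542 on chromosome 9 (21077194 to 21889622), a gene of low level in both cell types. It had 2.35, 2.2, 2.30 and 2.43 CPM after Ad-PPARg and 3.58, 5.35, 5.04 and 2.28 CPM after Ad-GFP. Replicate 4 of the controls fell among the treated libraries, and the log2 difference was -0.82 (SE 0.33, adjusted p 1.00, edgeR). ENSOCUG00000003191 on chromosome 10 (23083423 to 23874931) had 5.06, 4.05, 2.80 and 1.31 CPM against 5.71, 8.54, 6.79 and 5.16 CPM, without overlap, and a log2 difference of -0.98 (SE 0.40, adjusted p 1.00). A gene on chromosome 8 (61106058 to 61648921) was the other of the 2 long genes whose treated libraries all lay below the controls (0.976%, against 0.556% of all genes), and 0 had them all above, against 0.697%. It had 19.5, 19.5, 19.2 and 6.44 CPM against 19.7, 22.9, 29.2 and 26.7 CPM, so that 3 treated libraries lay barely under the lowest control.

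Upward, ENSOCUG00000017426 on scaffold GL018703 (910314 to 1631064) had 12.0, 8.09, 10.2 and 14.6 CPM in OPC after Ad-PPARg and 10.5, 8.46, 7.12 and 6.68 CPM after Ad-GFP, with a log2 difference of 0.44 (SE 0.25, adjusted p 1.00, edgeR). ENSOCUG00000000847 on chromosome 1 (45429244 to 45862102) had 349, 293, 315 and 770 CPM against 353, 249, 332 and 338 CPM. Its log2 difference of 0.44 (SE 0.31, adjusted p 1.00) came from replicate 4 alone and was 0.00 without it. The next 3 upward genes, on chromosome 7 (74453602 to 75364651), chromosome 12 (89504828 to 89984640) and scaffold GL018869 (67620 to 548977), also had their highest value in replicate 4 of Ad-PPARg, 169, 226 and 89.3 CPM. In that library the 705 other genes at least 16-fold higher in OPC made up 16.4% of the counts, against 11.5% to 13.7% in the other 7 OPC libraries, and its part in these values was not tested.

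The treatment differences of the 2 cell types were compared in 1 model over all 16 libraries (OPC effect minus microglia effect). No long gene was called, where percent called over all 14699 genes was 0%, and the lowest adjusted p was 0.997 (edgeR). At an unadjusted p under 0.05 (edgeR) there were 0 long genes with a difference above 0, against 1.2% of all tested genes. There were 7 with a difference below 0 (3.27%), against 1.53%, and 2.73% of all genes passed in either direction. DESeq2 gave 1 and 9 at that level, against 2.63% and 1.67%, and called none, where it called 0.0136% and 0% of all genes. The difference was above 0 for 39 of 214 long genes (18.2%), against 47.8% of all tested genes, with a median of -0.38 against -0.02. Without replicate 1 of the Ad-PPARg microglia it was above 0 for 94 of 214 (43.9%), against 50.2% of all tested genes. The medians were -0.10 and 0.00. Without replicate 1 of the Ad-GFP microglia the difference was above 0 for 61 of 216 (28.2%), against 48.0% of all tested genes. The medians were -0.24 and -0.02. For ENSOCUG00000000863 the difference of the 2 effects was -0.64 (SE 0.23, adjusted p 0.997), so a treatment effect that differs between microglia and OPC was not shown for any single long gene.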

How the data were processed

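RNA sequencing measured 16 libraries of rabbit microglia and OPC at day 7. The authors deposited raw counts per gene for each library. Per the submitters' processing notes, bcl2fastq 2.17, STAR 2.5.2b and Subread 1.5.2 were used. Not given in the sources used here: annotation release, build and strand setting. Reads of another gene can fall on a long gene where exon bases are shared, which was found in 7 long genes. The counts come from exons, which cover a small part of these spans. Each animal is 1 sample per cell type, and replicates are numbered in accession order.

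Gene spans and exon entries were read from the count files. The genes and comparisons were chosen with earlier results of these data known. Counts were tested in R 4.3.3 with edgeR 4.0.16 (TMM scaling, default low-count filter, robust quasi-likelihood fit, Benjamini-Hochberg over all tested genes, threshold 0.05). The cell type comparison used all 16 libraries, and each treatment comparison the 8 of its cell type. The matching used log2(CPM + 0.5) in bins of 1 log2 unit. The main edgeR fits, the DESeq2 fits and the matching were tested on simulated data, and the other alternatives were not. DESeq2 1.42.0, limma 3.58.1, other scalings, filters and spans, single libraries left out, sums per identifier prefix and an animal block were alternatives. The block pairs the libraries of the 6 animals with both cell types, on the strength of the animal identifiers. Deviations of paired libraries correlated at -0.03 to 0.25 over 14699 genes and at -0.27 to 0.20 over 214 long genes. Replicate libraries differed by more than counting noise in all 24 pairs.

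Genes named were chosen by rule: by identifier, the 2 with the lowest p per direction in each comparison; by position, up to 10 (cell types) or 5 (treatment) by p, the 3 longest, the 3 nearest either side of the threshold, the 3 highest per cell type and those at least 16-fold higher in microglia.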

Additional observations from a re-analysis of the deposited data

Results flagged for a closer look

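In 4 groups of 4 libraries, 1 library of a named long gene lay far from the other 3, by Dixon's criterion at the 95% level. About 1 in 20 groups exceeds it by chance. ENSOCUG00000009950 had 86.7 CPM in replicate 4 of the Ad-GFP microglia, where the other 3 had 129 to 134 CPM. ENSOCUG00000029667 had 123 CPM in the same library, where the other 3 had 152 to 156 CPM. ENSOCUG00000000847 had 770 CPM in replicate 4 of the Ad-PPARg OPC, where the other 3 had 293 to 349 CPM. ENSOCUG00000010654 had 4.77 CPM in replicate 1 of the Ad-GFP OPC on the scale of the OPC libraries alone, where the other 3 had 3.41 to 3.61 CPM.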

How the results depend on the processing

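Of 250 recomputed values, 222 kept their direction and their side of the threshold or stayed within the spread. These include treatment medians of 0.05 to 0.55 in microglia and -0.11 to 0.03 in OPC with 1 library left out. The pooled SD of the library medians, 0.38 in microglia and 0.17 in OPC, exceeded the main medians of 0.30 and -0.05. The total therefore does not show that those medians are stable. Also included are the microglia shares of 67.7% and 91.8% at other CPM levels. The matched difference between long and shorter genes was 12.9 to 16.2 points with 1 library left out and 8.71 to 14.9 points under the other settings. Upper-quartile scaling moved the median cell type difference of all genes from -0.01 to 0.19 and that of the long genes from 1.20 to 1.33. Counts followed the span threshold: of 412 tested genes from 300 kb, 216 (52.4%) were called higher in OPC, and of 108 from 500 kb 64 (59.3%), against 35.1% of all tested genes. Called in favour of microglia were 86 (20.9%) and 18 (16.7%), against 33.4%. At 2 CPM 86.4% were expressed in OPC.

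In microglia DESeq2 called 2 long genes and limma 14, and no other setting called any. Those at an unadjusted p under 0.05 numbered 4 with counts summed per prefix (2.13%, against 3.94% of all tested genes) and 34 in limma (19.0%, against 32.0%). They were 38 of 360 tested from 300 kb (10.6%) and 10 of 92 from 500 kb (10.9%), against 11.4% of all. With 1 library left out they ranged from 6 (3.06%, against 6.03%) without replicate 3 of Ad-GFP to 24 (13.0%, against 21.2%) without replicate 4 of Ad-GFP. In OPC they numbered 0 with prefix sums (0.310% of all genes) and 34 in limma (16.6%, against 16.3%). With 1 library left out they were 0 to 15, and the 15 (7.18%, against 7.64% of all genes) came without replicate 4 of Ad-PPARg. The median in OPC changed sign without replicate 1 of Ad-PPARg and in limma. With the animals as a replicate block over 12 libraries, 114 of 216 long genes were called higher in OPC and 48 in microglia. The counts in those libraries without the block were the same. Over all genes 9951 were called with the block and 10232 without it. At an unadjusted p under 0.05 (edgeR), 76.9% of the long genes passed with the block, against 69.9% of all tested genes. Without the block it was 77.8% against 71.6%. In treatment effect 12 differed between the cell types at an unadjusted p under 0.05 with the block (5.56%, against 4.46% of all genes) and 13 in the same 12 libraries without the block (6.02%, against 4.65%). With 1 library left out they were 5 to 19, and the 19 (8.84%, against 3.57%) came without replicate 2 of the Ad-GFP microglia. The block and the fit without it on those libraries called none for that difference. The cause of these changes was not tested. Low counts in microglia limit the precision of the long genes there. The settings for assembled chromosomes, for exon lengths of 2000 to 10000 bp and for the unblocked 12 libraries were added after seeing the data.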
